A study of Boehmeria nivea with 18 samples.

Results

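The miR165/miR166 family is among the most conserved miRNA families of land plants. In Arabidopsis, its mature miRNAs pair with transcripts of class III homeodomain-leucine zipper (HD-ZIP III) transcription factors and direct their cleavage, and these factors set the polarity of leaves and vascular bundles and take part in the formation of xylem and interfascicular fibers. The mature miRNA is the 3p arm of its hairpin, while the 5p arm, the miRNA star strand, is usually degraded. Tags of 1 family can start or end at different bases, and such sequence variants are called isoforms here.

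The isoforms described are the 10 most abundant miR166 names in the stem bark of ramie (Boehmeria nivea), a crop grown for the bast fibers of its bark. They were chosen by their abundance, as the names beginning with miR165 or miR166 with the highest mean TPM over the 6 small RNA libraries. Of the 379 known and predicted miRNAs with tags, 13 had such a name, all of them miR166, and 0 were named miR165. The abundance is given as TPM, the tags of a miRNA per 1000000 listed tags of its library. Since the mean TPM chose the members, their level and rank are a description. The last member, miR166g-3p, averaged 25.1 TPM over the 6 libraries, and the first name left out, miR166u, averaged 14.6 TPM.

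Bark was taken from the middle stem section (MPS), where the secondary walls of fiber cells thicken, and from the top stem section (TPS) of the cultivar Zhongzhu No. 1. Each section had 3 replicates, each collection was made from 5 plants, and the same RNA samples gave the small RNA libraries and the whole-transcriptome (cDNA) libraries. All plants were of 1 cultivar and age, 40 days in the labels and younger in the study's methods, and no treatment or genotype was compared. Whole bark was used, so that fewer cells of a type and less RNA per cell cannot be told apart in any value below.

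The 10 isoforms are shown with bases 2 to 8, the seed, in capitals, since isoforms that start at different bases differ in this stretch. The sequences are those that the authors listed for each name, and 13 of 13 names had one.
miR166a-3p: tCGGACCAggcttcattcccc
miR166: tCGGACCAggcttcattccccc
miR166k: tCGGACCAggcttcattcct
miR166g-3p: tCGGACCAggcttcattcctc
miR166h-3p: tCTCGGACcaggcttcattcc
miR166h-3p_1: tCTCGGACcaggcttcattcc
miR166e-3p: cTCGGACCaggcttcattccc
miR166m_2: cGGACCAGgcttcattcccc
miR166e: gGACCAGGcttcattcccc
miR166d-5p_1: gGAATGTTgtctggctcgagg

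Of the 10 members, 9 come from the 3p arm and share a core of 17 bases, ggaccaggcttcattcc. None of the other 353 listed miRNA sequences held this core (0 of 353). The core lies at different offsets, so that the 3p members have 5 different seeds. Compared with miR166a-3p, miR166h-3p starts 2 bases earlier (a shift of -2) and miR166e-3p 1 base earlier (a shift of -1), while miR166m_2 starts 1 base later and miR166e 2 bases later. miR166, miR166k and miR166g-3p start at the same base as miR166a-3p and differ at the 3′ end. The only 5p member, miR166d-5p_1, has a seed of its own.

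Names are not always separate sequences. miR166h-3p and miR166h-3p_1 have the same listed sequence but were counted separately in the deposited values, and how their tags were divided is not stated in the labels or the methods. The sequence of miR166e lies within that of miR166m_2, which lies within that of miR166a-3p, which in turn lies within that of miR166. The sequence of miR166a-3p occurs in 3 of the 6 precursor loci that the listed precursors make up, so that its tags cannot be assigned to 1 locus. The listed precursor of miR166h-3p stops short of where that sequence would end, so the 3 loci are a lower bound. The precursor listed for miR166a-3p is shown from the 5p side to the 3p product of its hairpin, because it gives the most abundant miRNA, and that of miR166h-3p because its names differed most between the sections, with the 3p product in capitals.
miR166a-3p precursor stretch: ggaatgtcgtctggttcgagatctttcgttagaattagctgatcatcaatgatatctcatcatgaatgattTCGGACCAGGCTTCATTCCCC
miR166h-3p precursor stretch: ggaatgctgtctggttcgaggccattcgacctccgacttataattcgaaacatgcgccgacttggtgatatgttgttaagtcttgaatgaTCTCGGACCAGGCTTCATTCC

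The first stretch spans 92 bases and the second 111 bases. RNAfold folded them with minimum free energies of -38.0 and -50.5 kcal/mol. In these predicted folds, 17 of the 21 bases of miR166a-3p and 19 of the 21 bases of miR166h-3p were paired with the first 25 bases of the stretch. The stretches are placed on no chromosome, since no ramie genome was used.

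In units of 1000000 tags, the libraries held 27.6 to 32.0, of which 3.36 to 5.85 (12.2% to 18.3%) were miRNA tags. miR166g-3p, the least abundant member, had 316 tags (10.3 TPM) in its lowest library. Replicates of a section differed widely, and the common dispersion over all miRNAs tested was 0.523. TPS replicate 3 stood apart from the other TPS libraries in miR166h-3p, miR166e-3p, miR166m_2, miR166e and miR166g-3p, and their fold changes are given with and without it. Nothing in the labels says whether replicates were separate plantings, so p-values measure the spread between these samples. As a check of the sections, some of the secondary wall genes that the study had named from these samples were read in the cDNA libraries. The study also named an IRX15L-like secondary wall gene, whose transcript it reported as lower in MPS. That gene was not read here. The IRX1-like cellulose synthase BntWG10024039 had 42.7, 190 and 215 FPKM in MPS, against 51.1, 14.9 and 12.2 FPKM in TPS. MPS replicate 1 was thus below TPS replicate 1 in this marker, while the MYB46/MYB83-like gene BntWG10013420 was at 1.46 to 3.08 FPKM in MPS and 0.23 to 0.58 FPKM in TPS. Of the laccases, BntWG10014339 had 0.07 to 1.87 FPKM in MPS and 0.01 to 0.06 FPKM in TPS, and BntWG10014338 was at 0.16 FPKM or less in MPS and listed in none of the 3 TPS libraries.

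The family made up more of the miRNA tags than any other in the bark. The 10 members held 52.5 ± 6.21% of miRNA tags in MPS and 54.4 ± 4.03% in TPS (SD, n = 3 each), and the lowest and highest of the 6 libraries were at 45.7% and 58.7%. They were 6.18% to 10.6% of all listed tags. Among 35 families of known miRNAs, the next were miR319, which targets TCP transcription factors, with 5.86% of miRNA tags, miR170/miR171 with 5.85% and miR159, which targets GAMYB-like genes, with 5.63%. The summed level of the members was 105885, 61786 and 85688 TPM in MPS, against 81207, 83211 and 61802 TPM in TPS. The sections overlapped in the sum, with 2 MPS libraries above and 1 below all TPS libraries. The ratio of the means, MPS over TPS, was 1.12 in TPM and 0.966 relative to the miRNA tags alone, and thus the side of 1 depended on the scale.

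A single isoform carried nearly all of this signal. miR166a-3p had 103834, 60429 and 84064 TPM in MPS, against 79771, 81994 and 60464 TPM in TPS. It ranked 1 of 379 miRNAs, and it held 97.8% to 98.5% of the members' tags in the 6 libraries. Its range over all libraries was 1.72-fold, and the highest and the lowest library were both from MPS. The log2 fold change, MPS over TPS, was 0.17 (SE 0.32), with an adjusted p of 0.770 in edgeR's quasi-likelihood test. The 95% interval was -0.60 to 0.95, so that the sections are not shown to be equal in miR166a-3p.

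**Figure D1:**
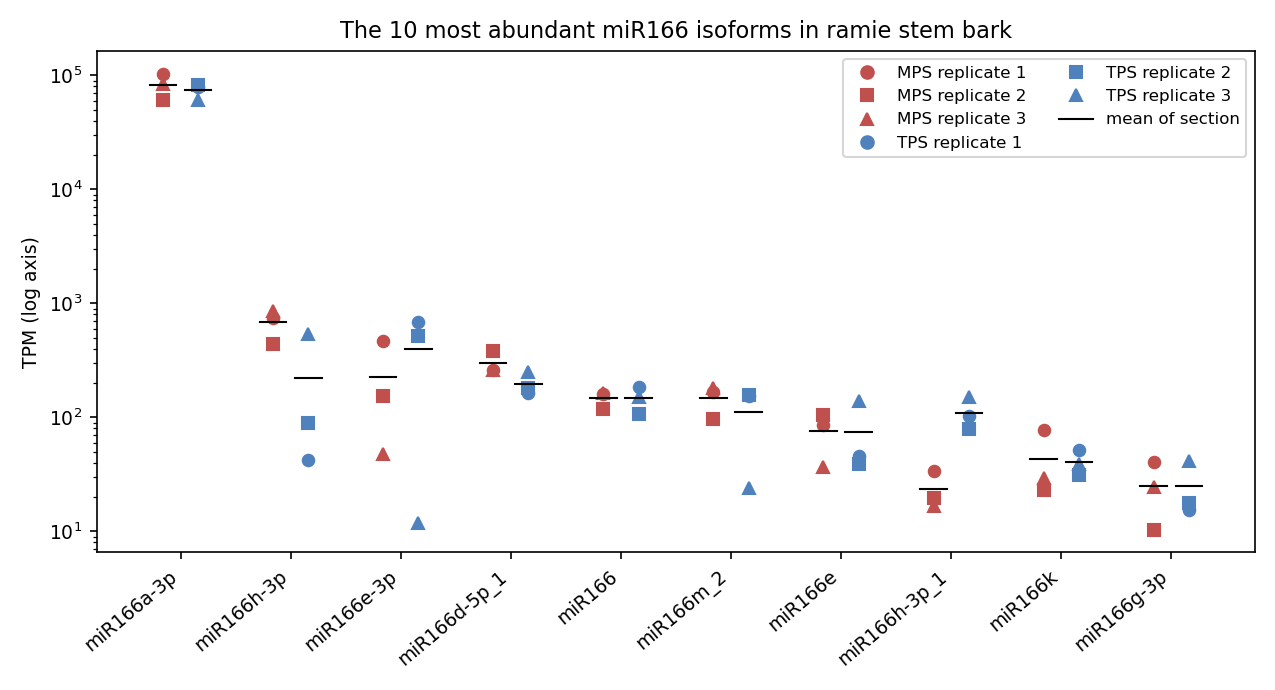
TPM (log axis) of the 10 isoforms in each library, with MPS left and TPS right for each isoform, replicates by symbol and a black line for the mean of a section (n = 3). miR166a-3p lies above all others at 60429 to 103834 TPM, and the sections are apart in miR166d-5p_1 and miR166h-3p_1 only.

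Below miR166a-3p, the order of the members was not firm. Their means over the 6 libraries ran down from 454 TPM for miR166h-3p through 313 TPM for miR166e-3p, 250.0 TPM for miR166d-5p_1, 147 TPM for miR166, 131 TPM for miR166m_2, 74.9 TPM for miR166e, 66.7 TPM for miR166h-3p_1 and 42.0 TPM for miR166k to 25.1 TPM for miR166g-3p. Only miR166a-3p had a range apart from that of the next member. In the other 8 neighbouring steps the ranges overlapped, and the higher of the 2 names was above the lower in 3 to 5 of the 6 libraries. Summed by seed, the 4 members that start at the same base as miR166a-3p had 78640 TPM, the pair with the miR166h-3p seed 521 TPM, miR166e-3p 313 TPM, miR166m_2 131 TPM and miR166e 74.9 TPM.

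All 10 members passed the filter on low counts, and 0 were called between the sections by edgeR (adjusted p under 0.05 and at least 2-fold), where the background was also 0% of 329 miRNAs. By DESeq2, 1 member was called, with a background of 14.6% of 328 miRNAs, and limma on log2 TPM called 0, with a background of 2.74%. By edgeR, 1 member had an unadjusted p under 0.05 and was lower in MPS, against 17.9% of all tested miRNAs in either direction and 8.21% that were lower in MPS. The libraries of the sections did not overlap in 2 members, against 30.4% of all tested miRNAs, and the members' shares were not above these either-direction backgrounds. The log2 fold change was positive in 8 members and negative in 2, with a median of 0.095, while 45.6% of all tested miRNAs were positive, with a median of -0.19. Over all settings tried, the median of all miRNAs lay between -0.22 and 0.0090, and the small differences of miR166, miR166k, miR166g-3p and miR166e turned sign under 1 or more settings.

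**Figure D2:**
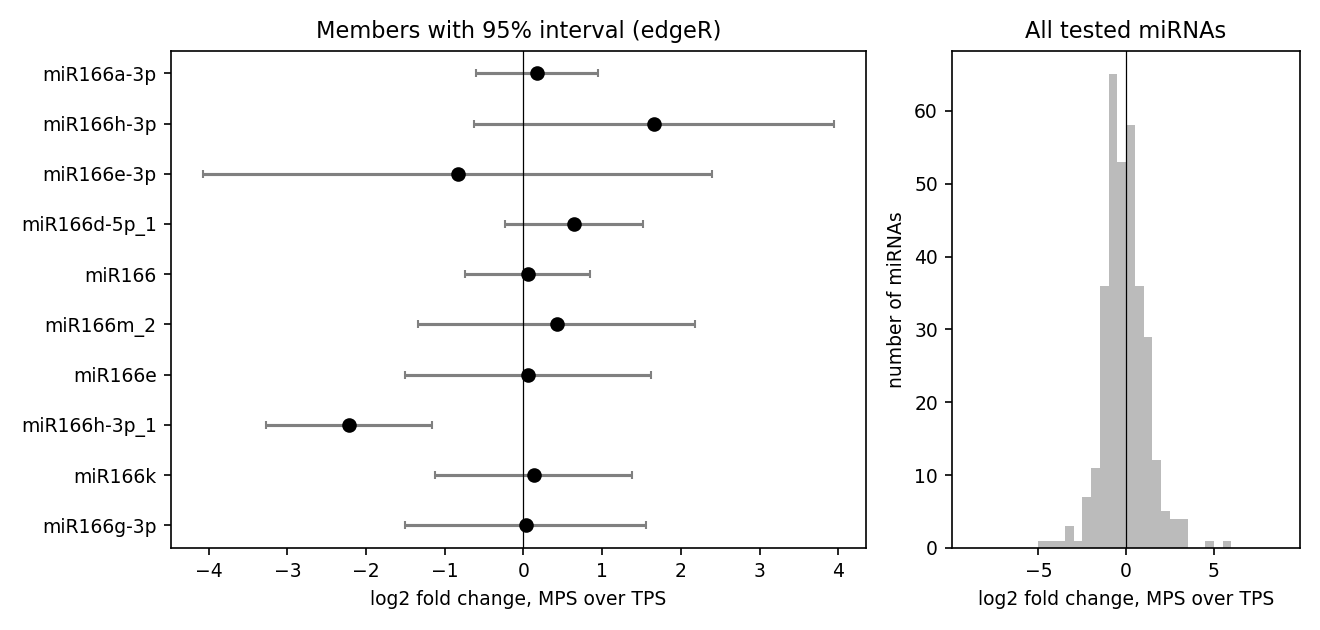
Left, log2 fold change, MPS over TPS, of each isoform from edgeR, with its approximate 95% interval (bars). Right, the number of miRNAs by log2 fold change for the 329 tested. Of the 10 intervals only that of miR166h-3p_1, -3.27 to -1.16, lies off 0, and its adjusted p was 0.106.

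Over all 6 libraries, edgeR gave the largest log2 fold change of the 10 members for miR166h-3p_1, while miR166h-3p had the larger one by limma, with the replicate block and without TPS replicate 3. miR166h-3p_1 had 33.7, 19.4 and 16.8 TPM in MPS, against 102, 78.9 and 150 TPM in TPS. Every MPS library was below every TPS library, and the replicate SDs were 9.11 TPM in MPS and 36.1 TPM in TPS. Its log2 fold change was -2.21 (SE 0.44), with an unadjusted p of 0.00194 and an adjusted p of 0.106 in edgeR. It is the member that DESeq2 called, with an adjusted p of 0.000467, and over all 15 alternatives the adjusted p ran between 0.000467 and 0.440 and the log2 fold change between -2.51 and -1.94. A fit with a term for replicate 1 versus the other replicates, which was chosen after seeing the data, called it as well, with an adjusted p of 0.0452 and a background of 9.42% of the miRNAs.

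The other name of the same sequence lay the other way. miR166h-3p had 752, 443 and 863 TPM in MPS, against 42.4, 89.5 and 534 TPM in TPS. TPS replicate 3 lay within the MPS range, and the other TPS libraries lay far below it. The log2 fold change was 1.66 (SE 0.95), with an adjusted p of 0.378 in edgeR, and without TPS replicate 3 it was 3.33 (SE 0.68), with an adjusted p of 0.258. Over the fits that left out 1 library, the log2 fold change ran between 1.25 and 3.33. With replicates 2 and 3 only it was 1.22. The ratio of miR166h-3p to miR166h-3p_1 was 22.3, 22.8 and 51.5 in MPS, against 0.416, 1.13 and 3.57 in TPS. This ratio, chosen after the values were seen and therefore not tested, was higher in every MPS library than in any TPS library. The sum of both names was 785, 462 and 879 TPM in MPS, against 144, 168 and 684 TPM in TPS. The sections overlapped in the sum through TPS replicate 3 alone, without which every MPS library was above both TPS libraries. What the difference of either name alone measures is therefore limited by how tags of 1 sequence were divided between 2 names, whose part in the result was not tested.

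miR166e-3p, whose sequence starts 1 base downstream of that of miR166h-3p, varied more than any other member. The 2 sequences were found in different precursor loci, each in only 1. The listed precursor of miR166h-3p ends with that sequence, so that miR166e-3p, which ends 1 base later, could not be found in it. Whether both come from 1 hairpin was therefore not tested. miR166e-3p had 471, 154 and 47.7 TPM in MPS, against 681, 513 and 11.9 TPM in TPS. The lowest and the highest library were both from TPS and differed 57.1-fold. The log2 fold change was -0.84 (SE 1.34, adjusted p = 0.738 in edgeR), and without TPS replicate 3 it was -1.39 (SE 0.95, adjusted p = 0.566).

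Where miR166h-3p was high, miR166e-3p tended to be low, with MPS replicate 1 as an exception, where both were high. The ratio of miR166h-3p to miR166e-3p was 1.60, 2.87 and 18.1 in MPS, against 0.0623, 0.175 and 44.8 in TPS. Within both sections replicate 3 had the highest ratio, and TPS replicate 3 had the highest of all libraries. Their sum was steadier than either, with 1222, 597 and 910 TPM in MPS, against 723, 602 and 546 TPM in TPS, a range of 2.24-fold where miR166h-3p alone ranged 20.3-fold. The sections overlapped in both the ratio and the sum. The pair was picked after its values were seen, and is given without a test.

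The 2 isoforms that start downstream of miR166a-3p showed a like pattern in TPS replicate 3. miR166m_2 had 168, 97.4 and 182 TPM in MPS, against 153, 159 and 24.1 TPM in TPS. miR166e, 1 base shorter at the 5′ end, had 85.0, 105 and 36.8 TPM in MPS, against 45.4, 38.8 and 139 TPM in TPS. In TPS replicate 3 miR166m_2 was at its lowest and miR166e at its highest, and the ratio of miR166e to miR166m_2 was 5.76 there and at most 1.08 in the other 5 libraries. Their sum was 253, 202 and 219 TPM in MPS, against 199, 197 and 163 TPM in TPS, a range of 1.55-fold, where miR166m_2 alone ranged 7.56-fold and miR166e 3.78-fold. Every MPS library was above every TPS library in this sum, which was formed after the values were seen and is not tested. The log2 fold changes were 0.42 (SE 0.73, adjusted p = 0.763) for miR166m_2 and 0.060 (SE 0.65, adjusted p = 0.964) for miR166e in edgeR, and without TPS replicate 3 they were -0.065 and 0.85.

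**Figure D3:**
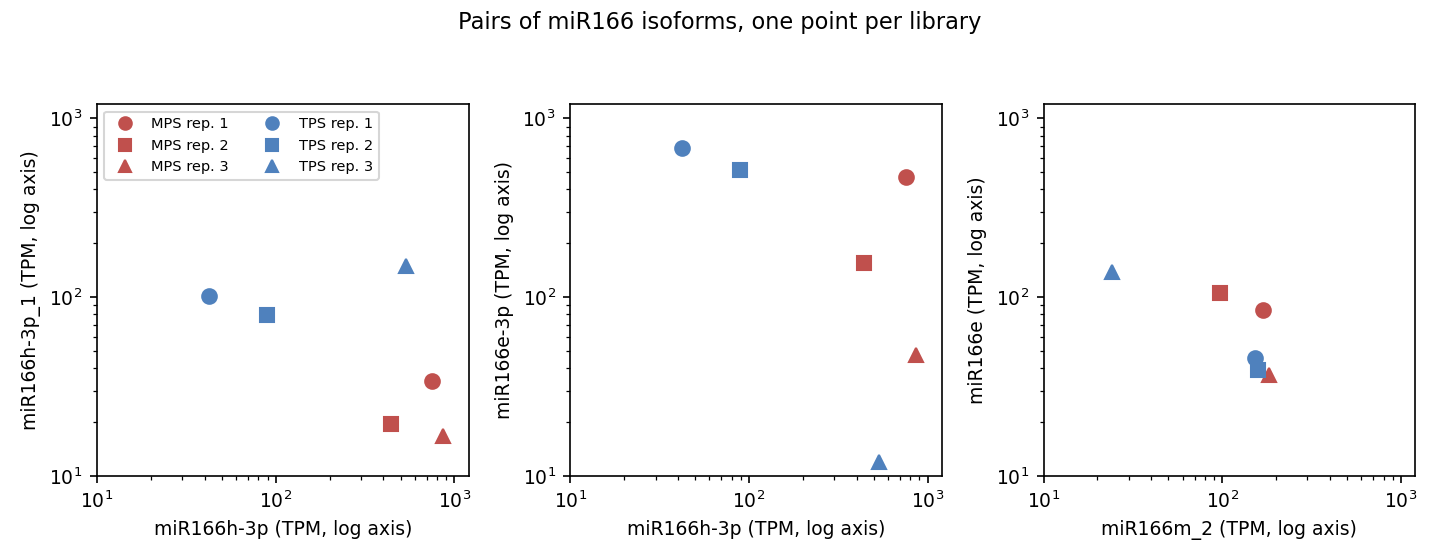
TPM of 3 pairs of isoforms in each library (log axes, MPS in red and TPS in blue, replicates by symbol). Left, MPS and TPS libraries take different places for miR166h-3p and miR166h-3p_1, which share a sequence. Middle and right, TPS replicate 3 lies apart from the other TPS libraries, with the lowest miR166e-3p (11.9 TPM) and the lowest miR166m_2 (24.1 TPM).

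The composition of the 9 members other than miR166a-3p followed these shifts, while their sum ranged 1.69-fold over the 6 libraries. The 9 members summed to 2051, 1357 and 1624 TPM in MPS, against 1436, 1217 and 1337 TPM in TPS. The lowest MPS library was below the highest TPS library, so that the sections overlapped. miR166h-3p made up 36.6%, 32.6% and 53.1% of these tags in MPS, against 2.95%, 7.36% and 39.9% in TPS, where replicate 3 alone reached into the MPS range. miR166e-3p made up 22.9%, 11.4% and 2.94% in MPS, against 47.4%, 42.2% and 0.892% in TPS. It was the leading name in TPS replicates 1 and 2, and miR166h-3p was the leading name in the other 4 libraries. miR166h-3p_1 made up 1.03% to 1.64% in MPS and 6.49% to 11.2% in TPS, and no other member had shares that were apart between the sections.

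**Figure D4:**
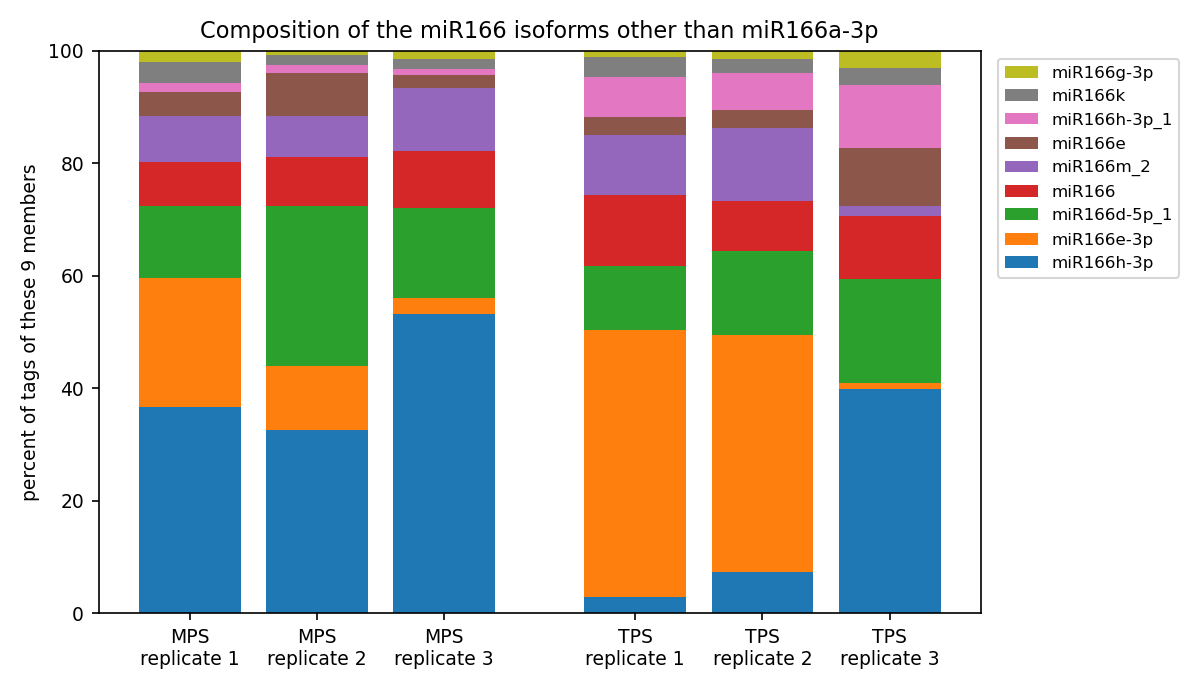
Percent of the tags of the 9 members other than miR166a-3p in each library, MPS left and TPS right, stacked from the most to the least abundant name. miR166h-3p (blue) takes 32.6% or more in the MPS libraries and in TPS replicate 3 takes 39.9%, whereas miR166e-3p (orange) takes 47.4% and 42.2% in TPS replicates 1 and 2.

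The other members with the seed of miR166a-3p had log2 fold changes near 0. miR166, 1 base longer at its 3′ end, had 119 to 163 TPM in MPS and 107 to 183 TPM in TPS, with a log2 fold change of 0.055 (SE 0.33). miR166k had 23.3 to 77.6 TPM in MPS and 31.3 to 51.4 TPM in TPS, with a log2 fold change of 0.13 (SE 0.52). miR166g-3p had 10.3 to 40.6 TPM in MPS and 15.4 to 41.7 TPM in TPS, with a log2 fold change of 0.027 (SE 0.63), and of 0.59 (SE 0.69) without TPS replicate 3, which held the highest of the TPS values. The adjusted p of these 3 members over all 6 libraries was between 0.892 and 0.982 in edgeR, and the sections overlapped in all 3.

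The only 5p name among the members was the other member whose sections were apart. miR166d-5p_1 had 263, 385 and 261 TPM in MPS, against 162, 182 and 248 TPM in TPS. Every MPS library was above every TPS library, but the lowest MPS and the highest TPS library were close. The log2 fold change was 0.64 (SE 0.36), with an unadjusted p of 0.125 and an adjusted p of 0.373 in edgeR. Tags of the 3p names exceeded those of the 5p names 392, 156.6 and 325-fold in MPS, against 482, 442 and 242-fold in TPS, and the sections overlapped in this ratio. The 3 names below the 10 members were miR166u with 15.1 to 17.9 TPM in MPS and 7.04 to 18.0 TPM in TPS, miR166h-5p with 1.96 to 6.15 TPM in MPS and 4.48 to 5.66 TPM in TPS, and miR166i-5p_1 with 0.42 to 1.38 TPM in MPS and 0.32 to 1.27 TPM in TPS.

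Another readout of the same gene family was the class of tags that the authors assigned to the mir-166 precursor family of Rfam. The choice of members did not use this class, but it comes from the same libraries and totals and is not independent of them. It had 304, 341 and 279 TPM in MPS, against 175, 300 and 451 TPM in TPS. TPS held both the lowest and the highest library, and the means were 308 ± 30.9 TPM in MPS and 308 ± 138 TPM in TPS (SD, n = 3 each). An exact two-sided permutation test of 3 against 3 libraries gave p = 1.0, where the smallest p that this design allows is 0.1.

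The miRNAs whose levels followed miR166a-3p most closely over the 6 libraries were taken from 199 other miRNAs with a mean of at least 10 TPM. The measure was the root mean square difference of centred log2(TPM + 1). It was 0.194 for novel_mir198, a predicted ramie miRNA, 0.217 for miR159a_2 and 0.240 for novel_mir81. Among the members, miR166 was at 0.316 from miR166a-3p, and the pair farthest apart was miR166h-3p and miR166e-3p with 3.32. These values share library depth and scale, and say nothing of shared function.

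In Arabidopsis, miR390 acts beside miR166 in leaf polarity, by triggering trans-acting siRNAs that repress auxin response factors. Its only name in the files, miR390a-5p, had 61.0, 57.5 and 55.5 TPM in MPS, against 125, 165 and 162 TPM in TPS. Every MPS library was below every TPS library. The log2 fold change was -1.37 (SE 0.34), with an unadjusted p of 0.00595 and an adjusted p of 0.129 in edgeR, so that it was not called.

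HD-ZIP III transcripts, the known targets of the family in Arabidopsis, were not analysed here, because no full gene annotation was at hand. The part of the study's list of differing genes that was at hand named no gene of this class. The 4 homeobox genes named there belong to other classes, and the study had listed them as differing in these samples, so they are not independent evidence. Of these 4 genes, 2 passed the filter and 0 were called by edgeR, against 0.758% of 13585 annotated genes tested. At an unadjusted p under 0.05 there was 1, against 15.7% of the annotated genes, and 1 was called by DESeq2, against a background of 7.96%, while limma called 0, against 2.75%. BntWG10011391, named ROC2 after an HD-ZIP IV gene of the outermost cell layer in rice, had 2.69, 3.04 and 4.40 FPKM in MPS, against 7.85, 21.2 and 12.1 FPKM in TPS. All MPS libraries were below all TPS libraries, with a log2 fold change of -2.05 (SE 0.49) and an adjusted p of 0.119 in edgeR and 0.00174 in DESeq2. BntWG10010819, named HAT3, an HD-ZIP II gene, had 2.74, 1.09 and 0.47 FPKM in MPS, against 0.21 and 0.34 FPKM in TPS replicates 1 and 3, and was not listed in TPS replicate 2. Its log2 fold change was 2.98 (SE 1.27, adjusted p = 0.338 in edgeR). BntWG10010895 (LET6) was listed in 2 MPS libraries and in 0 TPS libraries, and BntWG10011274 (HDG11) in 1 MPS library and 2 TPS libraries, at 0.75 FPKM or less.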

How the data were processed

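For the small RNA libraries, the deposited count values are the tags that the authors matched to known miRNAs and RNA families or to predicted miRNAs, and the deposited TPM values are these counts scaled to the library total, which count over total returned within 0.005. For the cDNA libraries, the authors deposited expected counts and FPKM values for annotated genes and the length of each transcript. The alignment for these was made with Bowtie2 and RSEM, per the authors' methods, with no versions stated. Genes below 0.01 FPKM are left out of the files. The circRNA table was not used here, and no fold change or p-value of the authors was used.

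Counts were compared with edgeR 4.0.16 in R 4.3.3 (quasi-likelihood test, TMM, filterByExpr, library totals as library sizes, 3 MPS against 3 TPS libraries), with Benjamini-Hochberg adjustment over the 329 miRNAs or 13585 annotated genes tested. Expected counts were rounded. Calls were made at an adjusted p under 0.05 with at least a log2 difference of 1 in either direction. The SE was taken as the size of the log2 fold change divided by the root of F, and it and the 95% interval are approximate. Sums, shares and ratios were computed with pandas 2.3.3, numpy 2.4.6 and scipy 1.17.1 under Python 3.11.15, folds with RNAfold 2.7.2 and plots with matplotlib 3.10.9. The edgeR fit was run on simulated counts, and a pass was required only at a dispersion of 0.05, far below the 0.523 of the miRNA data. This check therefore does not show how large a difference the fit can call in these data. Alternatives were DESeq2 1.42.0, limma 3.58.1 on log2 TPM after adding 0.5, other scalings and filters, the replicate block and leaving out libraries.

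The members and lists were chosen with earlier results of these data known. By rule, all 10 members, the other miR166 names, the 3 miRNAs most like miR166a-3p, miR390 and 4 homeobox genes were named. Same-numbered libraries of the 2 sections deviated together over the 329 miRNAs. The correlations were 0.644, 0.367 and 0.354 for replicates 1, 2 and 3. The numbers were used to pair the libraries in the replicate block only, and the main fits were unpaired. MPS replicate 2 correlated as closely with TPS replicate 3 (0.372), so the correlations do not establish the pairing of replicates 2 and 3.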

Additional observations from a re-analysis of the deposited data

How the results depend on the processing

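The count of members called was 0 by edgeR and 1 by DESeq2 and 1 with a term for replicate 1 versus the other replicates, an alternative chosen after seeing the data, and 0 in each fit that left out 1 library. For all miRNAs it was 0 by edgeR, 48 by DESeq2, 9 by limma and 31 with the replicate 1 term, and 0 to 5 when 1 library was left out, the 5 without TPS replicate 1. The homeobox genes called were 0, and 1 by DESeq2, and 0 to 0 without single libraries. The ratio of the members' summed TPM, MPS over TPS, was 1.12, 0.966 relative to the miRNA tags and 0.978 to 1.27 when 1 library was left out. With the replicate block that pairs the libraries, 0 miRNAs were called, and no call changed. The common dispersion was 0.279 with the block, against 0.523 in the main fit. For miR166h-3p, edgeR gave a log2 fold change of 2.38 with the block (adjusted p = 0.127), against 1.66 in the main fit (adjusted p = 0.378). The sign of the log2 fold change turned in members near 0. It was -0.053 with the block, -0.075 by limma, -0.31 with replicates 2 and 3 only and -0.048 with the replicate 1 term for miR166k, and -0.053, -0.044, -0.66 and -0.030 in the same fits for miR166g-3p. For miR166e it was -0.11 with replicates 2 and 3 only. When 1 library was left out, it ran between -0.45 and 0.43 for miR166k, -0.38 and 0.59 for miR166g-3p, -0.27 and 0.85 for miR166e, -0.021 and 0.26 for miR166 and -0.065 and 0.93 for miR166m_2. The cause was not tested. Every member had at least 316 tags in its lowest library.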

Other observations

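The names also differ in how many miRBase names and species the authors listed as matched to them. miR166a-3p was matched to 154 names in 36 species, miR166h-3p to 23 names in 6 species, miR166g-3p to 18 names in 14 species and miR166d-5p_1 to 12 names in 8 species. miR166 was matched to 5 names in 4 species and miR166k to 2 names in 2 species. miR166e-3p, miR166m_2 and miR166e were matched to 1 name in 1 species each. miR166h-3p_1, which has the sequence of miR166h-3p, was matched to 4 names in 3 species. The counts thus depend on how names were divided, and are not a measure of conservation. The 3p products of the other precursors folded here, those of miR166e-3p, miR166 and miR166k, had 16, 16 and 15 bases paired with the first 25 bases of their stretches. The hairpin listed under miR166m_2 had 0, 1 and 0 tags in MPS, against 1, 0 and 1 tags in TPS.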
